A study of Drosophila melanogaster with 2 samples.

Results

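The genes of the eukaryotic translation initiation factors were taken from the Ensembl annotation of the fly genome as all protein-coding genes whose symbol begins with eIF. There were 44 of them among 13945 protein-coding genes. The measurement was ChIP-seq, in which DNA fragments bound by a protein are precipitated with an antibody and sequenced. Whole Drosophila melanogaster pupae of 24 hours, of mixed sex, came from a transgenic line that stably expressed the CG15710 protein with eGFP at its C-terminus, and the antibody recognised GFP. CG15710 is known by its annotation number, and the submitters class the assay as one on transcription factors. The samples formed 1 group of 2 biological replicates (1 and 3), so no condition could be compared with another. Whole animals mix all tissues, so weak binding in many cells and strong binding in a few cells cannot be told apart.

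Initiation of translation brings a ribosome to the start codon of an mRNA. eIF2, a GTP-binding complex, delivers the initiator tRNA, eIF2B recharges eIF2 with GTP, and eIF3 holds the small ribosomal subunit and the other factors together. The eIF4 factors recognise the cap at the 5′ end of the mRNA, recruit the ribosome and unwind the leader, and eIF5B then joins the large subunit. Most of these proteins are needed in every cell, and Drosophila has additional gene copies of several of them, some of which act mainly in the testis. Many fly housekeeping promoters carry the DNA replication-related element (DRE), bound by the factor Dref.

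Some stretches of promoter DNA show what lay under the strongest summits and what lay before start sites that had no reproducible summit. A summit is the base at which a peak is highest, and positions are on build dm6 as read from the RefSeq copy of that assembly, 5′ to 3′ on the strand of the gene. Capitals mark matches, on either strand, to the DRE core TATCGAT, the E-box CAGCTG, the core GGTCACAC of promoter motif 1, the TATA letters TATAAA and the GAGA letters GAGAG. Where a DRE match reads the same on both strands, 8 bases stand in capitals. The first 5 sequences run from 50 bases before to 50 bases after the strongest summit of eIF4EHP (chr3R:24109155-24109255, minus strand), eIF1 (chr3L:3222999-3223099, plus strand), eIF4H1 (chrX:16448921-16449021, plus strand), eIF3h (chr2L:5052446-5052546, minus strand) and eIF2D (chr3R:29151915-29152015, minus strand). The sixth is the whole space of 69 bases between the start sites of eIF3a and its divergent neighbour CG1074 (chr3R:4433896-4433964, minus strand), which holds the eIF3a summit. The last 4 are the 100 bases before the most upstream start site of eIF2alpha (chrX:16446994-16447093, minus strand), eIF2gamma (chr3R:15263459-15263558, minus strand), eIF3l (chr3L:12146098-12146197, minus strand) and eIF3f1 (chr3R:4714183-4714282, minus strand), which had no peak in the reproducible list. These 4 were picked because they hold the DRE core.
eIF4EHP summit: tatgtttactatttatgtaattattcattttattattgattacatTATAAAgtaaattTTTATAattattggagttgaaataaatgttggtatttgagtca
eIF1 summit: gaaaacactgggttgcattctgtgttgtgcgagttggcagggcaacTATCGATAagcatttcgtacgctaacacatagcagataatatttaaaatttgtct
eIF4H1 summit: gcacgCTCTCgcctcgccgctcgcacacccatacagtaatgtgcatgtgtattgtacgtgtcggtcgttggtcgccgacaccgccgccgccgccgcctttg
eIF3h summit: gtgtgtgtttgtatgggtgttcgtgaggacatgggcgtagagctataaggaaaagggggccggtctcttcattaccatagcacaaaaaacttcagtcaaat
eIF2D summit: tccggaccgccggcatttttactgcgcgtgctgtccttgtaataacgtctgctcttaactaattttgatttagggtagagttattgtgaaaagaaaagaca
eIF3a to CG1074: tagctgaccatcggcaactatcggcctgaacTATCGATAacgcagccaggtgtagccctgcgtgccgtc
eIF2alpha upstream: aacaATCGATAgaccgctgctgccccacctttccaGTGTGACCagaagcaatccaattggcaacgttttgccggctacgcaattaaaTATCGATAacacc
eIF2gamma upstream: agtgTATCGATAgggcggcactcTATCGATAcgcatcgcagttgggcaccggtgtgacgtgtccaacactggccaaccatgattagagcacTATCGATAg
eIF3l upstream: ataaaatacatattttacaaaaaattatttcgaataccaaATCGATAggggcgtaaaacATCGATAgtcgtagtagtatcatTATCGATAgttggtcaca
eIF3f1 upstream: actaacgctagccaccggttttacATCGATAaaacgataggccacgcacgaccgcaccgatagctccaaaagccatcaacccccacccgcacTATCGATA
The windows differ plainly in composition. The eIF4EHP window is rich in A and T and carries 2 TATA matches, the eIF4H1 window ends in a run of GCC repeats, and the windows of eIF3h and eIF2D hold none of the marked motifs. The DRE core stands near the middle of the eIF1 window and between the start sites of eIF3a and CG1074. The 4 upstream stretches show the same core before genes without a reproducible peak. Of all 29 such genes, 13 had it in the wider promoter window described below and 16 did not.

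Of the 44 initiation factor genes, 15 had a reproducible CG15710-eGFP summit within 500 bp of a transcription start site (TSS), and such genes are called bound below. They are eIF1, eIF2beta and eIF5 of the eIF2 and start codon factors, eIF3a, eIF3c, eIF3h and eIF3m of eIF3, and eIF4A, eIF4G2, eIF4H1 and eIF4EHP of the eIF4 factors. The remaining 4 are eIF2A, eIF2D, eIF5B and eIF6. Reproducible means listed in the deposited set of 8483 peaks that the authors kept after a step on the irreproducible discovery rate (IDR). It equals the pooled peaks ranked 1 to 8483 by signal. The share bound was 34.1% (15 of 44, 95% exact Clopper-Pearson interval 20.5% to 49.9%), beside 24.6% of all 13945 protein-coding genes, which lies inside that interval. The interval covers the counting of genes only.

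The number of annotated TSSs moved with this share. Among the 29 initiation factor genes with 1 TSS, 6 were bound (20.7%), beside 18.6% of all genes with 1 TSS, a share near the background. Among the 13 with 2 TSSs, 8 were bound (61.5%), beside 35.6% of all such genes. Of the 2 with 3 or more TSSs, eIF4A was bound and eIF4E1 was not, beside 53.4% of all such genes. The part of the TSS number in the share of all 44 was not tested further.

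In the pooled list of 30000 peaks, 26 of the 44 genes had a summit within 500 bp of a TSS, beside 47.0% of all protein-coding genes. The replicate 1 list of 30000 peaks marked 28, beside 48.2% of all genes, and the replicate 3 list marked 25, beside 46.6%. The gene was marked in both replicate lists for 21 members and in no list for 12. Of the 11 members marked in 1 replicate only, 7 were marked in replicate 1 and 4 in replicate 3. The matching shares of all genes were not computed for these combined counts, so they only describe the members.

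**Figure D1:**
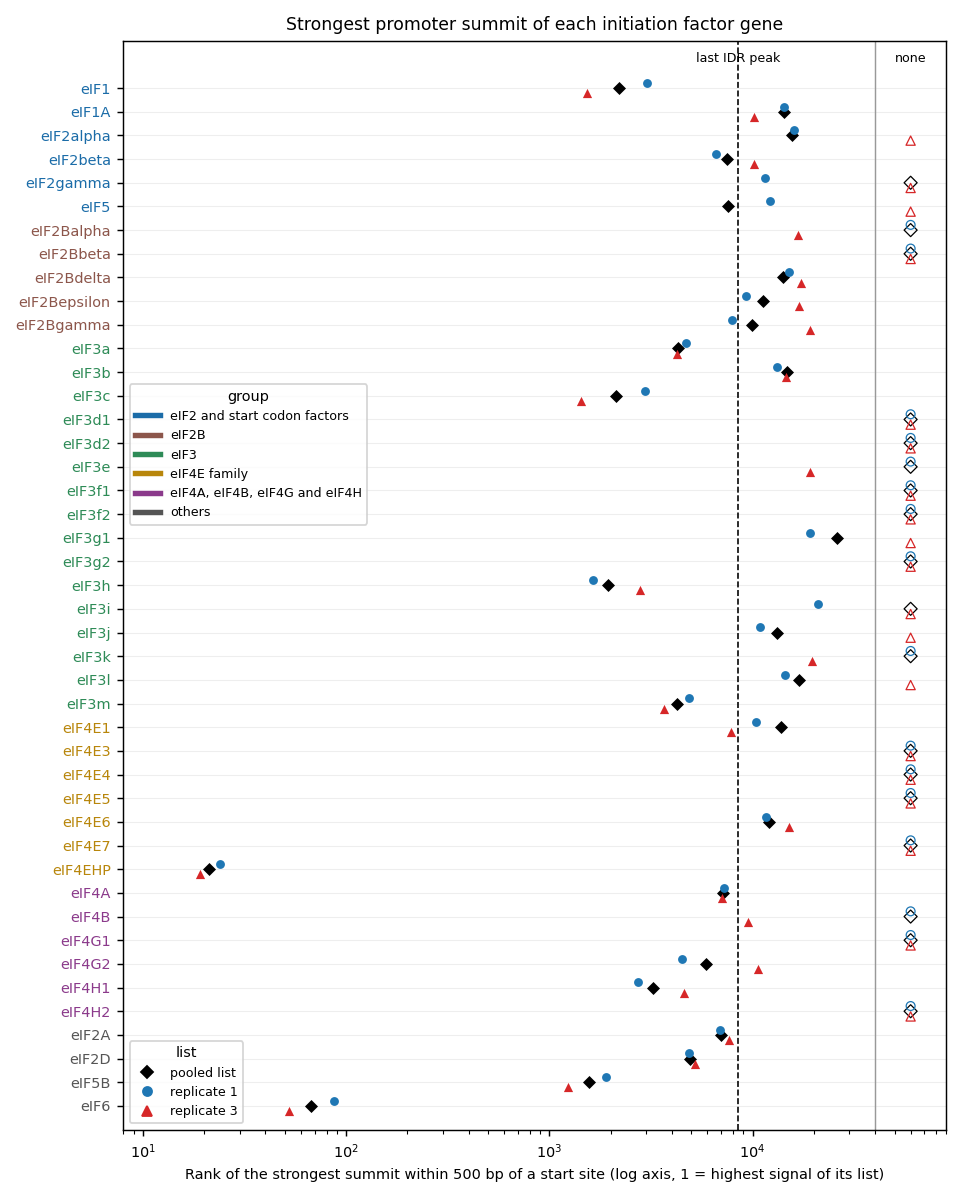
Rank, on a log axis, of the strongest summit within 500 bp of a TSS for each of the 44 genes, in the pooled list (diamonds), replicate 1 (circles) and replicate 3 (triangles), with open symbols under "none" where a list has no such summit; gene names are coloured by group, and the dashed line is rank 8483, the last IDR peak. eIF4EHP and eIF6 stand apart at the left with ranks of 87 or less in all 3 lists, and 12 genes have open symbols only.

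Binding at the genes of the translation initiation factors was uneven, with 2 genes far above the rest. eIF4EHP (FBgn0053100, chr3R:24063077-24108960, minus strand) encodes a cap-binding protein that does not recruit the ribosome and so represses mRNAs, among them caudal in the fly embryo. Its IDR peak (chr3R:24108928-24109442) had a signal of 4969 and ranked 21 of 8483, with the summit 245 bp upstream of the TSS. The signal was 2964 in replicate 1 (rank 24) and 2026 in replicate 3 (rank 19). The signal is the authors' own value for a peak, on a scale that is not stated, so lists are compared here by rank. Both replicates placed the gene among their strongest peaks, and their summits lay 5 and 0 bp from the pooled one. The TSS of CG18428, which points the other way, was nearer to this summit, at 131 bp, so the peak sits between 2 divergent genes and cannot be given to eIF4EHP alone.

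eIF6 (FBgn0034915, chr2R:23849246-23850301, minus strand) encodes the factor that keeps the large ribosomal subunit from joining the small one too early and also acts in building that subunit. Its peak (chr2R:23850196-23850608) had a signal of 3340 and ranked 67, with the summit 102 bp upstream of the TSS. The replicate signals were 1933 (rank 87) and 1430 (rank 52). The replicates differed little in rank, and no other protein-coding TSS lay within 500 bp of the summit. The third in rank, eIF5B, followed at rank 1574, so no member fell between rank 67 and rank 1574.

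Among the factors that deliver the initiator tRNA and choose the start codon, 3 of 6 were bound (exact interval for the share 11.8% to 88.2%), beside 24.6% of all genes, which lies inside the interval. eIF1 (FBgn0035423, chr3L:3223341-3224650, plus strand), which guards the accuracy of start codon choice, had 2 IDR summits. The stronger one had a signal of 594.7 (rank 2191) and lay 292 bp upstream of the TSS, with replicate signals of 278.8 (rank 3013) and 313.7 (rank 1527). It lay closer to RpL28, a ribosomal protein gene on the other strand, at 89 bp. The weaker one had a signal of 305.1 (rank 4587), lay 69 bp upstream of eIF1 and was listed in replicate 1 with 140.4 and in replicate 3 with 143.7. With a summit this near its own start site, the call for eIF1 did not depend on the peak nearer to RpL28.

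eIF2beta (FBgn0004926), the eIF2 subunit that binds eIF5, had a signal of 183.6 (rank 7443) at 278 bp upstream, with 129.8 in replicate 1 (rank 6631) and 51.49 in replicate 3 (rank 10178). eIF5 (FBgn0030719), which makes eIF2 hydrolyse its GTP at the start codon, had 180.6 (rank 7533) at 161 bp upstream, with 66.57 in replicate 1 (rank 12194) and no summit within 500 bp in replicate 3. It is the weakest call among the members: the pooled signal put it in the IDR list, while it ranked beyond 8483 in replicate 1 and was not listed in replicate 3. Its TSS is shared with CG46312.

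The other members of this group were in weaker lists only. eIF2alpha, the subunit that is phosphorylated under stress, had a pooled signal of 72.95 (rank 15660) at 50 bp upstream, with 47.16 in replicate 1 and none in replicate 3. Its nearest IDR summit, 1978 bp upstream, was the peak of eIF4H1. eIF1A, which works with eIF1 on the small subunit, had 82.37 (rank 14290) at 102 bp upstream, with 54.67 and 51.35 in the replicates. Its nearest IDR summit was in its own intron, 836 bp downstream of a TSS, with a signal of 176.1. eIF2gamma, the GTP-binding subunit, was marked in replicate 1 only, with 71.17 (rank 11495) at 30 bp upstream. Thus eIF2beta alone of the 3 genes for eIF2 subunits was bound, and its signal stood near the lower end of the IDR list, whose lowest signal was 159.

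None of the 5 genes for eIF2B, the exchange factor that recharges eIF2, was bound, a share of 0.00% with an exact 95% upper limit of 52.2%, beside 24.6% of all genes. With so few genes, this limit lies above the share of all genes. The pooled list marked 3 of the 5, beside 47.0% of all genes. eIF2Bgamma had a pooled signal of 131.3 (rank 9939) at 7 bp upstream, with 108.1 in replicate 1 (rank 7915) and 23.79 in replicate 3 (rank 19190). It was the highest-ranked member outside the IDR list. eIF2Bepsilon, the catalytic subunit, had 113.3 (rank 11201) at 94 bp upstream, with 90.12 and 27.69 in the replicates, and the TSS of Ocrl was nearer to this summit, at 13 bp. eIF2Bdelta had 84.34 (rank 14066) at 17 bp upstream, with 50.81 and 26.86. All 3 had a lower rank number in replicate 1 than in replicate 3. eIF2Balpha was listed in replicate 3 only, with 27.77 (rank 16817) at 8 bp upstream. eIF2Bbeta was in no list, although the fifth-ranked IDR peak, with a signal of 6905, lay 681 bp upstream. That summit was 38 bp from the TSS of Ugalt.

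Of the 16 genes for eIF3, the scaffold on the small ribosomal subunit, 4 were bound (25.0%), beside 24.6% of all genes, so the share was near the background. eIF3h (FBgn0022023, chr2L:5051193-5053094, minus strand) had 2 IDR summits, both downstream of the inner one of its 2 TSSs, from which the distances here are counted. The stronger had a signal of 650.1 (rank 1952) in an intron at 284 bp, with 450.7 in replicate 1 (rank 1644) and 197.1 in replicate 3 (rank 2799). The weaker had 190.1 (rank 7217) at 79 bp. eIF3c (FBgn0034258, chr2R:17665678-17669275, plus strand), with eIF3a a large subunit of the complex's core, had 605.3 (rank 2137) at 19 bp upstream, with 281.8 (rank 2965) and 328.5 (rank 1435). The ranks of eIF3h were better in replicate 1 and those of eIF3c in replicate 3.

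eIF3m (FBgn0033902, chr2R:14163066-14164825, minus strand) had a signal of 329.9 (rank 4236) in the 5′ UTR at 68 bp downstream, with 176.2 (rank 4877) and 153.8 (rank 3670). eIF3a (FBgn0037249, chr3R:4429798-4433895, minus strand) had 324.7 (rank 4298) at 13 bp upstream, with 181.7 (rank 4722) and 135.3 (rank 4229). Its summit was the closest to a TSS among the bound members, and it lay 57 bp from the TSS of CG1074, within the 69 bases printed above. These 2 genes had almost the same signal, close to the middle of the IDR list, whose median was 329.4.

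Another 4 eIF3 genes had a pooled summit but no IDR summit. eIF3j had a signal of 92.29 (rank 13159), eIF3b, which carries an RNA-binding domain, 78.17 (rank 14843), eIF3l 65.7 (rank 16839) and eIF3g1 34.4 (rank 26099). The eIF3b summit was nearer to the TSS of Patronin, at 30 bp. Of these genes, eIF3b was in both replicate lists and the other 3 in replicate 1 only. eIF3i was listed in replicate 1 only, at 31.89, and eIF3e and eIF3k in replicate 3 only, at 23.75 and 23.09. eIF3d1, eIF3d2, eIF3f1, eIF3f2 and eIF3g2 were in no list. The subunits of a single complex thus ranged from rank 1952 to no peak at all.

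Among the eIF4 factors other than the cap-binding family, 3 of 6 were bound (exact interval for the share 11.8% to 88.2%), beside 24.6% of all genes, again inside the interval. eIF4H1 (FBgn0262734, chrX:16448665-16454972, plus strand), named after eIF4H, which stimulates the helicase eIF4A in mammals, had a signal of 428.5 (rank 3231), with 300.3 in replicate 1 (rank 2740) and 125 in replicate 3 (rank 4576). The summit lay 181 bp upstream of the inner TSS and 306 bp downstream of the outer one, in an intron. eIF4G2 (FBgn0260634), an eIF4G paralog needed in the male germ line, had 234.8 (rank 5922) in the 5′ UTR at 185 bp downstream, with 190.8 in replicate 1 (rank 4516). In replicate 3 no summit came within 100 bp of it, and the peak that overlapped it had 48.96 (rank 10587) with its summit 133 bp away. eIF4G2 shares its TSSs with CG33111.

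eIF4A (FBgn0001942), the helicase that unwinds mRNA leaders, had a signal of 192.8 (rank 7114) at 98 bp upstream of its innermost TSS, with 117.9 in replicate 1 (rank 7261) and 73.26 in replicate 3 (rank 7452). Replicate 3 had a slightly stronger summit elsewhere in the promoter, at 78.14 (rank 7062), 108 bp upstream of another TSS. The summits of eIF4A thus lay at more than 1 of its 3 start sites. eIF4B, which also aids eIF4A, was listed in replicate 3 only, with 55.41 (rank 9545) at 116 bp upstream, and its nearest pooled summit was 590815 bp away. eIF4G1, the main scaffold between the cap and the ribosome, lies on chromosome 4 and was in no list, with the nearest pooled summit 28859 bp upstream. eIF4H2 was in no list, and its nearest IDR summit lay 3505 bp upstream with a signal of 190.

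In the eIF4E family, 1 of 7 genes was bound, the repressor eIF4EHP described above, beside 24.6% of all genes. eIF4E1, which encodes the main cap-binding protein, had a pooled signal of 85.98 (rank 13870) at 34 bp upstream. Its strongest replicate summits were at different start sites, with 80.08 (rank 10389) in replicate 1 and 70.01 (rank 7789) in replicate 3. eIF4E6 had 103.5 (rank 12041) at 87 bp upstream, with 70.29 and 31.43 in the replicates, and the TSS of CG1951 was nearer, at 25 bp. eIF4E3, which acts in spermatogenesis, eIF4E4, eIF4E5 and eIF4E7 were in no list, with nearest pooled summits 2292, 27665, 11430 and 8065 bp away. The family thus held the highest signal of all 44 genes and 4 of the 12 genes that were in no list.

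The 4 members outside these complexes were all bound (4 of 4, exact lower limit 39.8%), beside 24.6% of all genes. eIF5B (FBgn0026259, chr3L:3428658-3460977, minus strand), the GTPase that joins the ribosomal subunits, had a signal of 770.3 (rank 1574) at 151 bp upstream of its inner TSS, with 409.9 in replicate 1 (rank 1889) and 367.8 in replicate 3 (rank 1232). eIF2D (FBgn0041588), which in mammals can bring tRNA to the ribosome without eIF2, had 284.4 (rank 4932) at 171 bp upstream, with 176.5 (rank 4870) and 108.7 (rank 5215). eIF2A (FBgn0037135), which in mammals can also deliver initiator tRNA, had 195.9 (rank 7015) in the 5′ UTR at 33 bp upstream of its inner TSS, with 125 (rank 6878) and 71.02 (rank 7689). Together with eIF6 these 4 had ranks within the first 8483 of both replicates.

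**Figure D2:**
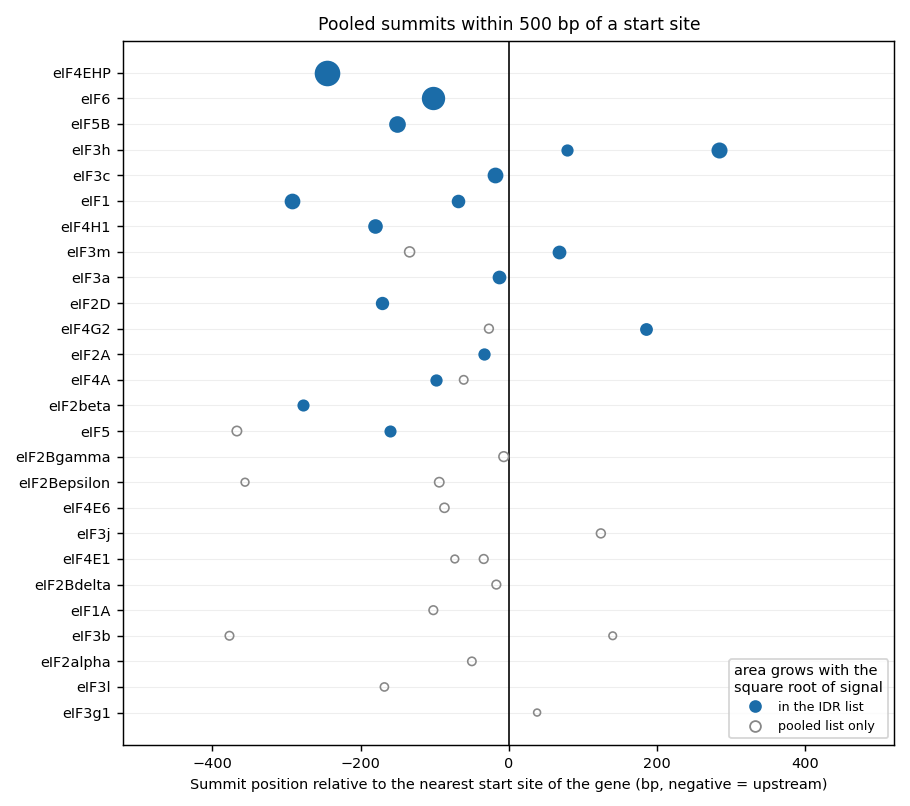
Position of every pooled summit within 500 bp of a TSS for the 26 members that have one, in bp from the nearest TSS of the gene (negative is upstream), ordered by rank; filled circles are also in the IDR list, open circles are in the pooled list only, and the area grows with the square root of the signal. Of the strongest IDR summits of the 15 bound genes, 12 lie upstream and 3 downstream, and those of eIF3h and eIF4G2 lie farthest downstream of it.

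Relative to the nearest TSS of the gene, the strongest summit lay upstream in 12 of the 15 bound members (80.0%), beside 84.5% of all 3426 bound genes. The median position was 102 bp upstream, beside 140 bp upstream for all bound genes. The median rank was 4236 and the median signal 329.9, beside 3792 and 369. These values describe the members and were not tested. In eIF2A, eIF3m, eIF4A, eIF4G2, eIF4H1 and eIF5B the summit was upstream of an inner TSS and downstream of an outer one. It thus lay inside the annotated gene, as did that of eIF3h, which was downstream of every TSS of its gene. The remaining 8 summits lay before every TSS of the gene. The gene's own TSS was the nearest protein-coding TSS in 11 cases. It was tied with another gene in 2 (eIF4G2 and eIF5), and another gene was nearer in 2 (eIF1 and eIF4EHP).

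The strongest summit had a partner within 100 bp in both replicates for 13 of the 15 bound members, and an overlapping peak in both for 14. eIF5 lacked a partner in replicate 3, and the replicate 3 peak over the eIF4G2 summit had its own summit farther away. The lowest bound members were eIF5 at 180.6 and eIF2beta at 183.6, and the highest member outside the IDR list was eIF2Bgamma at 131.3. The 11 members in the pooled list but not in the IDR list had signals from 34.4 to 131.3 and ranks from 9939 to 26099.

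For the 18 members with no pooled summit within 500 bp, the nearest lay between 681 and 590815 bp away, with a median of 4058.5 bp. In 1 of them, eIF2Bbeta, it was within 1000 bp, in 7 within 2500 bp and in 7 beyond 10000 bp. All but eIF2Bbeta thus lacked a pooled summit within 1000 bp. eIF2Bdelta, which had a pooled summit of its own, also had an IDR summit 749 bp upstream with a signal of 362.8, at 304 bp from the TSS of CG30414.

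The choice of window, list and start site moved the count in both directions. With a window of 250 bp, 14 members were bound, without eIF2beta, beside 19.5% of all genes. With 1000 bp, 18 were bound, with eIF1A, eIF2Bbeta and eIF2Bdelta added, beside 28.6%. When each summit went to a single gene, that with the closest protein-coding TSS, 14 were bound, without eIF4EHP (31.8%, interval 18.6% to 47.6%), beside 18.5%. With the most upstream TSS of each gene alone, 14 were bound, without eIF4A, beside 21.9%. When the IDR peak itself had to cover a TSS, 13 were bound, without eIF2beta and eIF4H1 (29.5%, interval 16.8% to 45.2%), beside 14.0%. Under this rule and that of the closest TSS the share of all genes lay below the interval, and under the other rules inside it. The intervals cover the counting of genes only, and the share of all genes was not matched for the number of TSSs. No test against all genes was made, so these positions do not decide whether the members differ from other genes. These rules thus shared most members, and each changed the place of at most 3.

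The strength required mattered more. Among the 4241 IDR peaks of highest signal, 8 members kept a summit (eIF1, eIF3c, eIF3h, eIF3m, eIF4EHP, eIF4H1, eIF5B and eIF6), beside 13.6% of all genes. When replicate 3's own 8483 strongest peaks stood in for the IDR list, without replicate 1, 13 were bound. eIF4E1 was gained and eIF2beta, eIF4G2 and eIF5 were lost, beside 24.8% of all genes. With replicate 1's own 8483 strongest peaks, without replicate 3, 15 were bound, with eIF2Bgamma in place of eIF5, beside 24.3%. eIF5 was the only bound member lost with each replicate taken alone.

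**Figure D3:**
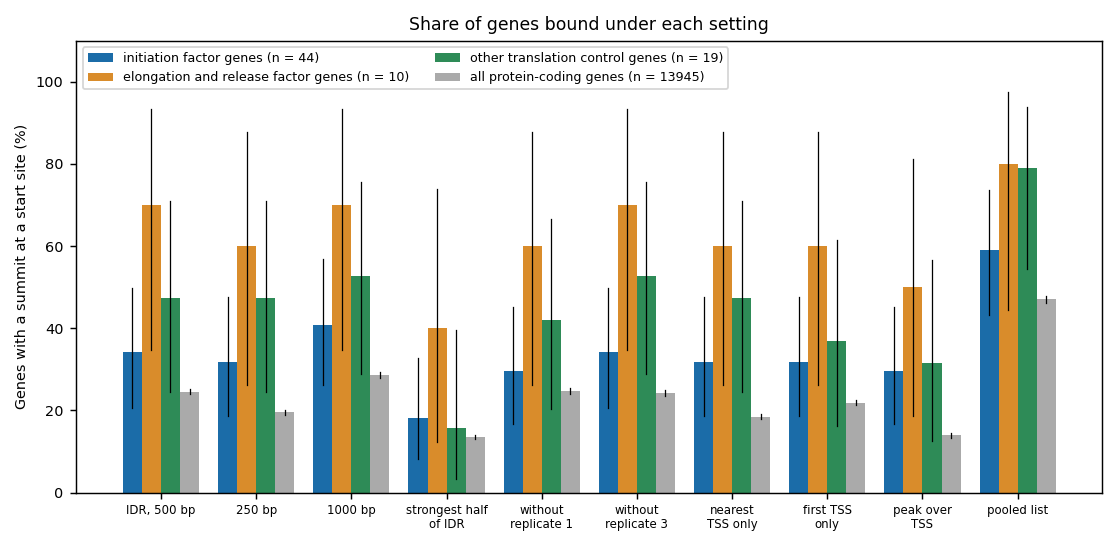
Share of genes with a summit at a TSS (bars, in %) under each setting for the 44 initiation factor genes, 10 elongation and release factor genes, 19 other translation control genes and all 13945 protein-coding genes, with 95% exact Clopper-Pearson intervals (lines) that cover the counting of genes only. The initiation factor genes stand above all genes in each setting, at 34.1% against 24.6% in the first, and their intervals overlap those of the other 2 translation lists.

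Peaks inside the gene bodies set 2 long genes apart. eIF5B spans 32320 bp and held 8 IDR summits. Of these, 7 lay in introns more than 500 bp from its TSSs, between 10006 and 27735 bp downstream, with signals from 174.5 to 550.1. No other annotated protein-coding gene lies inside it. For the summits from 18320 to 27735 bp downstream, the nearest protein-coding TSS was that of sty, 7933 to 17348 bp away. eIF4EHP spans 45884 bp and held 3 intronic IDR summits, with signals of 433.3, 220.7 and 161.9, and the genes Syx1A and CG10694 lie inside it. None of these inner peaks reached the signal at the promoter of its gene. In eIF4G2 the order was the other way round: an intronic summit 1040 bp downstream of a TSS had 426.3 (rank 3251), above the 234.8 at its promoter. Apart from the intron peak of eIF1A, no other member had an IDR summit in its body beyond 500 bp of a TSS. Long genes have more room for peaks, and the part of gene length was not tested.

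Paralogs are set side by side here as a description only, beside 24.6% of all genes bound. eIF4EHP was bound and the other 6 genes of the eIF4E family were not. eIF4G2 was bound, at 234.8, and eIF4G1 was in no list. eIF4H1 was bound, at 428.5, and eIF4H2 was in no list. For eIF3d, eIF3f and eIF3g, none of the 6 copies was bound, and eIF3g1 was the only copy with a pooled summit. In the pooled list, which marked 47.0% of all genes, the eIF4E family had 3 copies (eIF4E1, eIF4E6 and eIF4EHP).

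Genes that act on the same process but do not carry an eIF symbol were set beside them. Of 19 other genes of translation control, 9 were bound (47.4%, interval 24.4% to 71.1%), beside 24.6% of all genes. Most of these 19 genes have 2 or more annotated TSSs. Among all genes, 35.6% of those with 2 TSSs and 53.4% of those with 3 or more were bound. larp, an RNA-binding protein of the La-related family, had a signal of 7034 (rank 4), above eIF4EHP. It was followed by pAbp, the poly(A)-binding protein, at 543.6, and pix, a ribosome recycling factor, at 460.5. Pdcd4, an inhibitor of eIF4A, had 288.8 and crc, the fly ATF4, 252. The 4 others ranged from 160.9 to 223.1: mxt, an eIF4E-binding protein, the kinases Lk6 and S6k, and PPP1R15, which directs dephosphorylation of eIF2alpha. The unbound ones included Thor, the fly 4E-BP, at a pooled signal of 135.6, and the eIF2alpha kinases PEK, at 42.1, and Gcn2, which was in no list.

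Of 10 elongation and release factor genes, 7 were bound (70.0%, interval 34.8% to 93.3%), beside 24.6% of all genes. Their signals were 777.2 for eEF1gamma, 580.3 for eRF3, 479.1 for eRF1, 420.5 for eEF2, 322 for eEF5, 274.5 for eEF1alpha1 and 165 for eEFSec. The TSS of Acox57D-p was nearer to the eEFSec summit, at 72 bp. That of SC35 was nearer to the strongest eRF3 summit, at 184 bp. With a window of 250 bp, 6 were bound, beside 19.5% of all genes. When each summit went to the closest TSS, 6 were bound, beside 18.5%. Both rules lost eEFSec and kept eRF3. eEF5 was formerly known as eIF5A and would have joined the initiation factors under its older name. The share of all genes, 24.6%, lay below the interval for these 10 genes, which overlaps that for the 44. Most of the 10 genes have 2 or more annotated TSSs. Among all genes, 35.6% of those with 2 TSSs and 53.4% of those with 3 or more were bound, both inside the interval for the 10. No test between the lists was made, and overlap of intervals does not decide whether they differ. Their median rank was 3304, beside 4236 for the bound initiation factor genes and 5547 for the bound control genes.

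Promoter letters were compared over the 250 bases before and the 50 bases from the most upstream TSS of each gene. This window missed the strongest summit of most bound members. In eIF1 and eIF2beta that summit lay 292 and 278 bp upstream. In eIF3m, eIF4G2, eIF2A, eIF5B and eIF4H1 it lay 68, 185, 192, 223 and 306 bp downstream of that TSS. In eIF3h and eIF4A it lay more than 500 bp downstream. The letters are thus those of start sites, not of the DNA at the summits. The DRE core TATCGAT, read on both strands, was in 21 of the 44 promoters (47.7%), beside 18.2% of all 13945. It was in 8 of the 15 bound (53.3%) and in 13 of the 29 unbound (44.8%). Among all genes it was in 24.8% of bound and 16.1% of unbound promoters. The share was thus above that of the matching promoters in general in bound and in unbound members, and no test of it was made. The motif 1 core GGTCACAC was in 6 (13.6%), beside 7.70% of all promoters.

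The other letters, also read on both strands unless said otherwise, gave a mixed picture. TATAAA was in 20 of the 44 (45.5%), beside 45.8% of all, with 11 of 15 bound (73.3%) and 9 of 29 unbound (31.0%). Among all genes the same letters were in 47.2% of bound and 45.3% of unbound promoters. The polypyrimidine initiator, read as CTTTT or CTTTC on the coding strand within 50 bases of the start and known from genes of the translation machinery, was in 18 (40.9%), beside 27.1% of all. It was in 3 of 15 bound and 15 of 29 unbound promoters (51.7%), beside 27.7% and 27.0% among all genes. For both motifs the bound and unbound members stood farther apart than bound and unbound genes in general, in opposite directions, and with 15 and 29 genes no test was made. The initiator letters TCAGT were in 10 (22.7%), beside 51.5% of all, GAGAG in 7 (15.9%), beside 29.7%, and CAGCTG in 4 (9.09%), beside 17.7%. Matches to the DRE core overlap where the letters TATCGATA give a match on each strand.

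**Figure D4:**
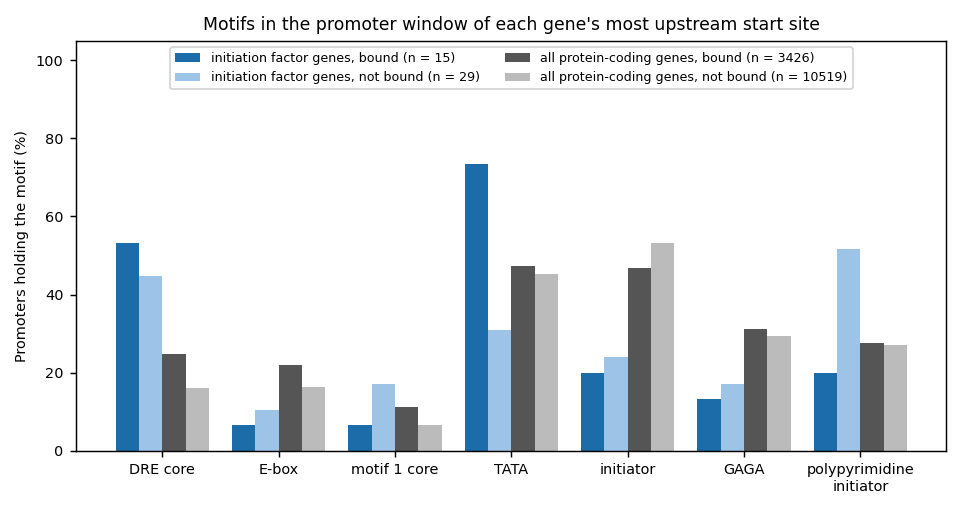
Share of promoters (in %) that hold each motif at least once in the 300-base window of the most upstream TSS (within 50 bases of it for the polypyrimidine initiator), for bound and unbound initiation factor genes and for bound and unbound genes in general. The DRE core stands at 53.3% and 44.8% in the members against 24.8% and 16.1% in all genes. The shares for TATA and the polypyrimidine initiator differ between bound and unbound members in opposite directions, which was not tested. The window misses the strongest summit of most bound members.

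Windows of 50 bases on either side of the 15 strongest summits are shorter than the promoters above and cover fewer genes. Their shares are therefore set beside those of the 2852 IDR summits at promoters. The DRE core was in 2 of 15 (13.3%), those of eIF1 and eIF3a printed above, beside 4.80%. The motif 1 core was in 1 (6.67%), beside 1.12%. The initiator letters were in 6 (40.0%), beside 15.6%, and GAGAG in 4 (26.7%), beside 10.9%. TATAAA was in 2 (13.3%), beside 23.3%, and the E-box in 0. A match is only a run of letters, and short ones are found often by composition. Base composition differed too: the median GC content was 42.6% at the 15 summits, beside 31.7% at IDR summits of promoters, whereas the 300-base promoters had 36.3% in bound and in unbound members, beside 38% of all.

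The bound members were spread over the genome. There were 4 of 13 on 3R, 4 of 11 on 3L, 3 of 9 on 2R, 2 of 3 on 2L, 2 of 7 on X and 0 of 1 on chromosome 4, beside 22.5% to 25.7% of all genes on these arms.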

How the data were processed

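Per the labels and file headers, 4 narrowPeak lists on build dm6 were deposited: those of replicates 1 and 3, that of both pooled, and that left by the authors' IDR step. The deposited signal of each peak is the authors' own value, on a scale that no source here states, and was used only within its list. The deposited −log10 q-value stood at 4.37 in every IDR peak, so peaks were ranked by signal instead. The sources used here name no aligner, peak caller or IDR threshold. The lists hold no read counts, so depth is unknown. A control experiment was not analysed here. For 20 peaks over the 4 lists the summit stood 1 base past the peak's end, and it was used as given.

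Genes and TSSs came from Ensembl release 115 (annotation BDGP6, 6.54), and sequence from the RefSeq copy of the assembly, checked by reading 30540 of 30593 annotated start codons as ATG. A gene counted as bound if any of its TSSs had an IDR summit 500 bp away or less, and the strongest such summit gave its values. All members were named. Genes outside the list were named when their TSS shared or was nearer to a member's summit, or when they were bound genes of the 2 comparison lists. CG1074, Syx1A, CG10694, sty, Acox57D-p, SC35, Thor, PEK and Gcn2 were named after their values were seen. In the translation control list, 19 of 20 symbols matched. The members, lists and motifs were chosen with earlier results of these data known. With 1 group there was no test between groups. Python 3.11.15, numpy 2.4.6, scipy 1.17.1 and matplotlib 3.10.9 were used, and the counting was tested on simulated data.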

Additional observations from a re-analysis of the deposited data

How the results depend on the processing

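Over all counts and shares the report leads with, 66 values under alternatives stayed close to the first and 21 did not, where close means within 1.5 times for a count and inside the 95% exact interval of the first value for a motif share. The count of bound initiation factor genes, 15 at first, was 8 among the 4241 strongest IDR peaks and 26 in the pooled list, and 13 to 15 without either replicate. For the eIF2 and start codon factors (3 at first) it was 1 among the strongest peaks, 5 in the pooled list and 1 to 2 without either replicate. For eIF2B (0 at first) it was 2 with 1000 bp, 3 in the pooled list and 0 to 1 without either replicate. For eIF3 (4) it was 8 in the pooled list. For eIF4A, eIF4B, eIF4G and eIF4H (3) it was 1 among the strongest peaks. For the eIF4E family (1) it was 0 with the nearest TSS only, 3 in the pooled list and 1 to 2 without either replicate. For eIF2A, eIF2D, eIF5B and eIF6 (4) it was 2 among the strongest peaks. Among the strongest peaks the other translation control genes (9) had 3 and the elongation and release factor genes (7) had 4, and the former had 15 in the pooled list. Beside all these counts, the share of all genes bound was 13.6% among the strongest peaks and 47.0% in the pooled list. It was 28.6% with 1000 bp, 18.5% with the nearest TSS only, and 24.8% and 24.3% without replicate 1 and without replicate 3. Motif shares in the shorter summit windows of the 15 bound genes, in place of the promoters of all 44, were 13.3% for the DRE core, 0.00% for the E-box, 13.3% for TATA and 40.0% for the initiator. Those for the motif 1 core (6.67%, from 13.6%) and GAGA (26.7%, from 15.9%) stayed inside the interval. Window place, window length and the genes included changed together here. No value has a sign under test, but 2 motifs changed side relative to their background. The initiator was at 22.7% against 51.5% in promoters, and at 40.0% against 15.6% at summits. GAGA was at 15.9% against 29.7% in promoters, and at 26.7% against 10.9% at summits. The cause of these moves was not tested beyond what each alternative leaves out. No paired analysis was possible because there was only 1 group. The lists end at 30000 peaks, so weaker binding is not shown, and counts in groups of 4 to 16 genes move by a large share when 1 gene changes.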
